A study of Mus musculus with 12 samples.

Results

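The 10 genes described here encode vimentin (Vim), lamin A/C (Lmna), the annexins Anxa1 and Anxa2, the S100 proteins S100a4, S100a6, S100a10, and S100a11, and the galectins Lgals1 and Lgals3. They were chosen by name, and their mRNA was followed over 12 RNA-seq libraries of mouse T helper cells, 4 each from Th0, Th17, and iTreg cells. Of the 11247 genes listed in either deposited table, 9 are members. The table of Th17 versus Th0 lists 8 of them and the table of iTreg versus Th0 lists 9. Anxa1 has no row in either table and S100a4 has none in the Th17 table. The authors had removed genes that did not exceed 1 CPM in at least 4 samples, so a missing row is not a level of 0, and no value is given for it. All listed members also passed the filter used here, which kept genes above 1 FPKM in 4 or more of the 8 libraries.

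All cells were naive CD4+ T cells from the spleens of C57BL/6 mice that were 8 to 10 weeks old. All were activated with plate-bound anti-CD3 and anti-CD28, each at 1 µg/ml, and collected after 72 h. Th0 cells received no polarizing cytokine. Th17 cells also received IL6 at 30 ng/ml and TGFβ1 at 5 ng/ml, with antibodies against IL4 and IFNγ at 10 µg/ml each. iTreg cells also received IL2 at 10 ng/ml and, per the labels, TGFβ1 at 10 ng/ml, a concentration for which the study's methods give another value. The libraries of a group came from 4 cultures that the study calls independent. They are named by their column headings, which begin with M22, M29, M42, or M43 in every group and end with the group. What the beginnings mark is not stated in the labels or the methods.

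Vimentin is the intermediate filament protein of lymphocytes and mesenchymal cells. Lamin A/C is an intermediate filament protein of the nuclear lamina, and its level is known to follow the stiffness of a tissue and to be low in lymphocytes at rest. Annexins bind phospholipid membranes when calcium is present, and S100 proteins are small calcium-binding proteins that often work as dimers with an annexin, as S100A10 does with annexin A2 and S100A11 with annexin A1. Galectins bind β-galactosides on glycoproteins, and galectin 1 and galectin 3 are secreted without a signal peptide. Most of these genes are higher in effector and memory T cells than in naive T cells, and vimentin is known for its part in the shape, stiffness, and migration of activated lymphocytes.

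On GRCm38 (mm10) the members lie on 6 chromosomes in the GENCODE annotation. Vim is at chr2:13573927-13582826 on the plus strand, Anxa2 at chr9:69453620-69491795 on the plus strand, Lgals3 at chr14:47367751-47386160 on the plus strand, Lgals1 at chr15:78926725-78930465 on the plus strand, and Anxa1 at chr19:20373428-20390944 on the minus strand. Lmna is at chr3:88480147-88509956 on the minus strand. The S100 members are on the same chromosome as Lmna and on the plus strand, S100a4 at chr3:90603771-90606045, S100a6 at chr3:90612882-90624181, S100a11 at chr3:93520488-93526287, and S100a10 at chr3:93555080-93564643. Reads had been counted over exons without strand, so overlap with a gene on either strand matters, as do near-identical copies. The exons of S100a4 share 51.7% of their bases with Gm42674, a protein-coding gene model on the same strand, and such reads can be left uncounted. Anxa2 shares 2.63% of its exonic bases with the antisense gene Gm16144. S100a11 has 2 processed pseudogenes with near-identical sequence, the longest match being Gm7665 with 297 bases at 98.7% identity.

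The sequence just before the start of the genes that changed in iTreg cells is shown because 4 of these genes rose together and Anxa2 fell. RefSeq (GRCm38.p6) gives windows for 8 of the 10 members, 9 in all, and none for S100a10 and Lgals1. Motifs were searched on both strands in the 250 bases before the start, with the share of the 32851 RefSeq windows of that length that hold them. They were the TATA box (TATAAA, 12.4% of windows), the GC box (GGGCGG, 32.7%), an AP-1 motif (TGANTCA, 6.75%), a STAT motif (TTCNNNGAA, 7.02%), and a SMAD motif (GTCTAGAC, 0.167%). No matches overlapped. Capitals mark motifs, and positions count back from the start, with −1 as the last base before it. The Vim window lies inside the first exon of a longer Vim transcript in GENCODE, so a short stretch around its TATA box is printed. For Lmna (the window of the upstream start), Lgals3, and Anxa2, the part outside annotated exons is printed.
Vim, chr2:13574269-13574294, plus strand: ctaacagtgtTATAAAagcagcgccc
Lmna, chr3:88503387-88503602, minus strand: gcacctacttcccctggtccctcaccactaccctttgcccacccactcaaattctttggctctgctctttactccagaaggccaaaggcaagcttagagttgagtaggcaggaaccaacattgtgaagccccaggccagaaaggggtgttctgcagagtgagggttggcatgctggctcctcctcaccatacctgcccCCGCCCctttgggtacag
Lgals3, chr14:47373610-47373812, plus strand: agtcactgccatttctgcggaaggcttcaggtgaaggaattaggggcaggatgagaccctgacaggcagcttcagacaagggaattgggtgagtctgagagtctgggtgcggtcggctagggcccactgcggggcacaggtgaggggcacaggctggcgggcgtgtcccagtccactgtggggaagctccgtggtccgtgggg
Anxa2, chr9:69453433-69453619, plus strand: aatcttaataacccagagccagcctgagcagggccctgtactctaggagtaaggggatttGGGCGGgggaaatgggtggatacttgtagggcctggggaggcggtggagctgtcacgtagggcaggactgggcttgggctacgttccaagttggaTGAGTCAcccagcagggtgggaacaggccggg
The TATA box of Vim begins at -32, where S100a4 (-31) and Anxa1 (-32) also have one, and the TATA box of Anxa2 begins at -17. Lmna had a GC box at -52, Lgals3 at -7, Anxa2 at -190, -48, and -24, and S100a11 at -64, -52, and -24. The AP-1 motif was found in the windows of Anxa2 (-95) and S100a11 (-136 and -38). None of the 9 windows held the STAT or SMAD letters, which the windows of most genes lack as well. These matches are letters in a short window and were not tested against the expression values.

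The libraries held the mRNA of T cells. All 8 T cell markers were listed, with summed levels of 1151 to 2501 FPKM per library, while none of the 7 neutrophil, 7 fibroblast, and 6 red cell markers was listed. Of 10 macrophage markers, Cd68 and, in the Th17 table, Itgam were listed, and Lyz2, Csf1r, and Adgre1 were not. Their sum was 3.34 to 5.03 FPKM in Th0 and 5.58 to 16.5 FPKM in Th17 cells, and the iTreg table gave sums of 3.19 to 4.85 FPKM in Th0 and 2.61 to 7.19 FPKM in iTreg cells. Of 6 dendritic cell markers, 4 were listed in the Th17 table, with sums of 18.4 to 32.3 FPKM in Th0 and 2.43 to 15.5 FPKM in Th17 cells. The iTreg table lists 2 of them, with sums of 18.1 to 31.8 FPKM in Th0 and 10.3 to 34.7 FPKM in iTreg cells. Of 5 B cell and of 5 NK and CD8 T cell markers 1 each was listed, Cd79a (at most 3.84 FPKM) and Cd8b1 (at most 6.60 FPKM). The part of these cells in the members' values was not tested. Foxp3, the transcription factor of regulatory T cells, stood at 62.0 to 91.7 FPKM in iTreg and 2.04 to 7.24 FPKM in Th0 libraries. Of the Th17 libraries, M43_5 stood apart with 42.5 FPKM of Foxp3 against 0.499 to 4.50 FPKM in the other 3, so the members' Th17 results are given with and without it. In these bulk samples, fewer cells that express a gene and less mRNA per cell cannot be told apart.

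FPKM is a number of fragments divided by transcript length and library depth, and the sources used here do not give how the authors computed it. Th0 values are those of the Th17 table unless said otherwise. In the iTreg table they are 0.988 to 0.991 times as high, and each test used the values of its own table. The FPKM of 99.1% of the listed genes lay within 0.02 of whole-number steps in all libraries of a table. The smallest numbers of fragments that give these steps sum to between 5783265 and 8378210 per library, and depth differed by at most 1.44 times within a table. These numbers, found after the data were seen, show where a member's level rests on few fragments. They were 3 to 29 for S100a4 and 8 to 64 for S100a6, against 1094 to 18500 for Vim. Fold changes are differences of mean log2(FPKM + 1), a scale that understates the change of genes near 1 FPKM such as Lmna and S100a4.

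Against Th0, iTreg cells held more Vim, Lmna, Lgals1, and Lgals3 mRNA and less Anxa2 mRNA, while the S100 genes did not pass the test. In Th17 cells, the galectins Lgals1 and Lgals3 were up-regulated and Vim was not. These calls are from the fit without pairing. With libraries of the same heading beginning taken as a block, S100a11 and Anxa2 were also called lower in Th17 cells. That call held with any pair left out for S100a11 but not for Anxa2. The question put to the data was whether the other members follow Vim over libraries and groups.

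In iTreg cells compared to Th0 cells, 5 of 9 members were differentially expressed (DE), 4 up-regulated and 1 down-regulated, where 16.6% of the 10208 genes tested were DE (8.36% up-regulated and 8.21% down-regulated). In Th17 cells 2 of 8 members were DE, both up-regulated, where 19.3% of 10269 genes were DE (10.6% up-regulated and 8.69% down-regulated). Without the Th17 library M43_5, 1 of 8 members (Lgals3) was DE, among 1660 genes. DE means an adjusted p under 0.05 in limma with Benjamini-Hochberg adjustment over all genes tested, without pairing of libraries. The median log2 fold change was 1.03 over the 9 members and 0.011 over all genes in the iTreg comparison. It was 0.21 over the 8 members and -0.00071 over all genes in the Th17 comparison. These 5 members also had no overlap between iTreg and Th0 libraries, as had 22.8% of all genes (11.7% higher and 11% lower). The 2 in the Th17 comparison likewise had none, as had 23.8% of all genes (13.2% higher and 10.6% lower). Each of these 7 differences had a two-sided exact permutation p of 0.0286, the smallest that 4 libraries against 4 allow. Both comparisons use the same Th0 libraries, so their values are not independent of each other.

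**Figure D1:**
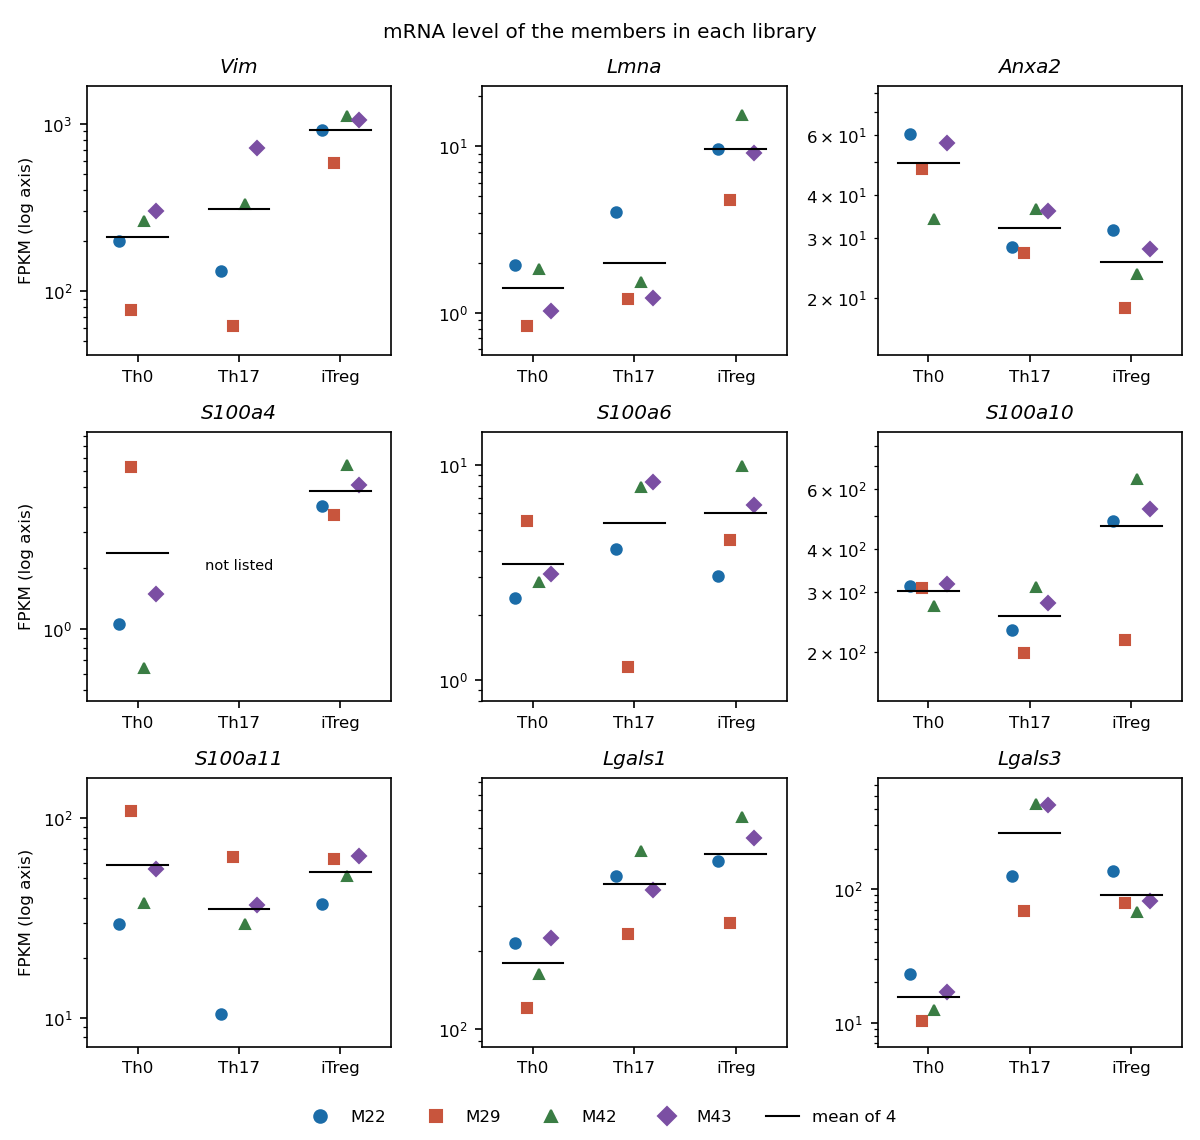
FPKM of 9 members (log axis) in each Th0, Th17, and iTreg library, with the shape and colour showing the beginning of the column heading and the black line the mean of 4 libraries. Th0 values are from the Th17 table, or from the iTreg table for S100a4, which the Th17 table does not list. All 4 iTreg libraries lie above all Th0 libraries for Vim, Lmna, Lgals1, and Lgals3, and M29 is the lowest Vim library of each group.

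Vim was one of the most abundant mRNAs of iTreg cells. Its level, in the order M22, M29, M42, and M43, was 196, 76.1, 259, and 295 FPKM in Th0 cells of the iTreg table. In iTreg cells it was 917, 580, 1119, and 1053 FPKM, so the groups were far apart. The Th0 mean was 206 ± 96.2 FPKM and the iTreg mean 917 ± 240 FPKM (SD, n = 4 each), a ratio of 4.44. Vim was up-regulated with a log2 fold change of 2.27 (SE 0.41, adjusted p = 0.0066, limma), the 85th largest rise of 10208 genes. It was 1.85 or more with any single library left out and remained DE each time. At the mean level of iTreg cells, 0.882% of the genes tested were more abundant per length than Vim, and 2.46% were at the level of Th0 cells.

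In Th17 cells, Vim stood at 131, 61.9, 333, and 718 FPKM against 198, 76.8, 262, and 299 FPKM in Th0 cells, an 11.6-fold range that covered the Th0 values on both sides. Th17 libraries M22 and M29 were below their Th0 counterparts and M42 and M43 above them, with ratios of 0.661, 0.806, 1.27, and 2.40. Its log2 fold change was 0.18 (SE 0.73, adjusted p = 0.896, limma), so no difference from Th0 could be called. Its sign depended on single libraries. It was -0.41 without the Th17 library M43_5, which also had the highest Foxp3, -0.25 without the Th0 library M29_1, and -0.044 without the Th17 library M42_5. The Th17 library with 718 FPKM was above the lowest iTreg library with 580 FPKM, in tables that had been scaled separately.

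Lmna was near the limit of the tables in Th0 cells and rose in iTreg cells. The Th0 libraries held 1.92, 0.826, 1.81, and 1.01 FPKM in the iTreg table, which rest on 22 to 57 fragments. The iTreg libraries held 9.59, 4.79, 15.3, and 9.11 FPKM, from 159 to 465 fragments. All iTreg libraries were higher, and the ratio of the means was 6.97. Lmna was up-regulated with a log2 fold change of 2.10 (SE 0.30, adjusted p = 0.00215, limma), and 2.77 with a pseudocount of 0.01. In spite of the rise, 62.2% of the genes tested were more abundant than Lmna in iTreg cells. In Th17 cells Lmna stood at 4.05, 1.20, 1.53, and 1.22 FPKM against 1.95, 0.833, 1.83, and 1.02 FPKM in Th0 cells. Library M22_5 was above all others and the groups overlapped, with a log2 fold change of 0.25 (SE 0.29, adjusted p = 0.588, limma). Without M22_5 it was -0.027, and without M43_5 it was 0.37. Lmna was the single member of the 8 listed in both tables whose Th17 libraries (1.20 to 4.05 FPKM) and iTreg libraries (4.79 to 15.3 FPKM) did not overlap. This difference was not tested, since the tables had been scaled separately.

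Lgals3 had the largest fold change of the members in Th17 cells. In iTreg cells it had the largest on the log2(FPKM + 1) scale, while Lmna had the larger ratio of means (6.97 against 5.85) and the larger fold change with a pseudocount of 0.01. Th0 libraries held 23.0, 10.3, 12.5, and 16.9 FPKM in the Th17 table. The Th17 libraries held 125, 68.5, 436, and 429 FPKM, so that M42 and M43 were above 400 FPKM and M22 and M29 below 130, and the ratios to the Th0 libraries of the same beginning ran from 5.42 to 34.8. Its log2 fold change was 3.65 (SE 0.59, adjusted p = 0.00283, limma), the 32nd largest rise of 10269 genes. It was 3.29 (adjusted p = 0.00789, limma) without M43_5, and it remained DE with any library left out. The macrophage marker sum was also higher in all Th17 than in all Th0 libraries, with Cd68 at adjusted p = 0.055 (limma, and 0.0186 with the block), and its part in this difference was not tested. The iTreg libraries held 137, 78.6, 67.0, and 80.8 FPKM with less spread. Lgals3 rose there by 2.48 on the log2 scale (SE 0.28, adjusted p = 0.000595, limma), the 70th largest of 10208 genes.

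Lgals1 was about as abundant as Vim in Th0 cells and was up-regulated in both conditions, by less than Lgals3. It stood at 214, 121, 163, and 224 FPKM in Th0 cells and at 390, 233, 487, and 345 FPKM in Th17 cells, where every library was higher than every Th0 library. Lgals1 rose in Th17 cells with a log2 fold change of 1.00 (SE 0.26, adjusted p = 0.029, limma). The call was lost without the Th17 libraries M22_5, M42_5, or M43_5 or the Th0 libraries M29_1 or M42_1, with adjusted p-values of 0.0521 to 0.0802 (limma). The iTreg libraries held 445, 257, 662, and 545 FPKM, again all above Th0. It rose there by 1.37 on the log2 scale (SE 0.31, adjusted p = 0.0169, limma), and it remained DE with any library left out.

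Anxa2, whose protein forms a heterotetramer with S100A10, moved against Vim. It stood at 59.9, 47.3, 33.7, and 56.1 FPKM in Th0 cells of the iTreg table and at 31.7, 18.7, 23.5, and 27.7 FPKM in iTreg cells, with no overlap. It was down-regulated in iTreg cells with a log2 fold change of -0.92 (SE 0.21, adjusted p = 0.0196, limma). The call was lost without the Th0 library M22_1 (adjusted p = 0.0573, limma) or M43_1 (adjusted p = 0.0558, limma), although the log2 fold change stayed between -1.09 and -0.79. In Th17 cells Anxa2 stood at 28.3, 27.1, 36.5, and 35.9 FPKM against 60.6, 47.7, 34.1, and 56.7 FPKM in Th0 cells, and the Th0 library M42_1 with 34.1 FPKM lay within this range. Its log2 fold change was -0.60 (SE 0.19, adjusted p = 0.0598, limma), and -0.66 without M43_5 (adjusted p = 0.0779, limma). Without the Th0 library M42_1 it passed the test (log2 fold change -0.77, adjusted p = 0.0141, limma).

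The partner gene S100a10 was abundant in all libraries. It stood at 312, 307, 272, and 316 FPKM in Th0 cells, the narrowest spread of the members in that group, with a coefficient of variation of 6.66%. Th17 libraries held 233, 198, 310, and 278 FPKM, and iTreg libraries held 484, 218, 638, and 524 FPKM. The iTreg library M29_4 was below all Th0 libraries and the other 3 were above them. S100a10 had a log2 fold change of -0.26 (SE 0.15, adjusted p = 0.259, limma) in Th17 cells, -0.31 without M43_5, and 0.54 (SE 0.30, adjusted p = 0.265, limma) in iTreg cells. Without M29_4, S100a10 was DE in iTreg cells with a log2 fold change of 0.87 (adjusted p = 0.00409, limma).

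S100a4, which binds non-muscle myosin, and S100a6, which binds annexins, were scarce. S100a4 stood at 1.06, 6.32, 0.642, and 1.48 FPKM in Th0 cells of the iTreg table (4, 25, 3, and 7 fragments) and at 4.04, 3.65, 6.45, and 5.15 FPKM in iTreg cells (18 to 29 fragments). The Th0 library M29_1 lay above all but 1 of the iTreg libraries. S100a4 had a log2 fold change of 1.03 (SE 0.42, adjusted p = 0.14, limma), and 1.49 without M29_1 (adjusted p = 0.00295, limma). S100a6 stood at 2.41, 5.49, 2.86, and 3.13 FPKM in Th0, 4.09, 1.15, 7.93, and 8.34 FPKM in Th17, and 3.06, 4.50, 9.87, and 6.53 FPKM in iTreg cells. Its groups overlapped, with log2 fold changes of 0.34 (SE 0.45, adjusted p = 0.643, limma) in Th17 cells, 0.089 without M43_5, and 0.61 (SE 0.31, adjusted p = 0.237, limma) in iTreg cells.

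S100a11 had a library order unlike that of Vim. It stood at 29.7, 109, 37.5, and 55.7 FPKM in Th0 cells, 10.5, 63.8, 29.4, and 36.8 FPKM in Th17 cells, and 37.1, 62.5, 51.5, and 64.7 FPKM in iTreg cells. M22 was the lowest library in each group, and M29, the lowest for Vim, was the highest in Th0 and Th17 cells. Its log2 fold change was -0.78 (SE 0.55, adjusted p = 0.371, limma) in Th17 cells, -0.88 without M43_5, and 0.059 (SE 0.38, adjusted p = 0.943, limma) in iTreg cells, where leaving out single libraries moved it between -0.20 and 0.42. Every Th17 library was lower than the Th0 library with the same heading beginning, with ratios of 0.352, 0.584, 0.784, and 0.661. The order was not particular to S100a11. In Th0 cells S100a6 had the same library order, and M22 was the lowest iTreg library of both genes.

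**Figure D2:**
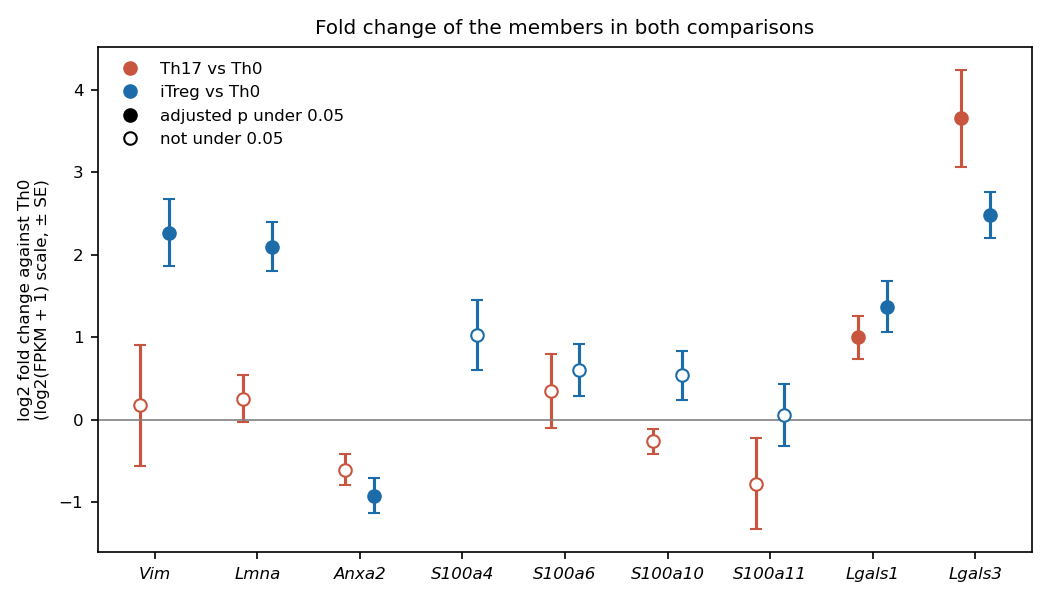
Log2 fold change against Th0 of each listed member (difference of mean log2(FPKM + 1), 4 libraries against 4, bars show ± SE), with filled points for an adjusted p under 0.05. Vim and Lmna are filled in the iTreg comparison alone, Lgals1 and Lgals3 in both, and Anxa2 is filled below 0 in the iTreg comparison.

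Libraries with the same heading beginning resembled each other across the genome. With this beginning as a replicate block, 3882 genes (37.8%) were DE in Th17 cells and 4170 genes (40.9%) in iTreg cells. Over all genes this fit gave more calls than the fit without pairing, though not for every list of genes. In the Th17 comparison 4 of the 8 members were then DE, and also 4 (3 up-regulated) without both M29 libraries, where 34.9% of all genes were, and 4 without both M42 libraries, where 27.7% were. They were 3 without both M22 libraries, where 25.1% were, and 3 without both M43 libraries, where 28.6% were. Anxa2 (adjusted p = 0.0411, limma with the block) and S100a11 (adjusted p = 0.0135, limma with the block) were added as down-regulated. S100a11 remained DE with any of these pairs left out, and Anxa2 lost the call without the M22 pair (adjusted p = 0.138, limma with the block) or the M43 pair (adjusted p = 0.117, limma with the block). In the iTreg comparison the same 5 of 9 members were DE with the block. Vim in Th17 cells had an adjusted p of 0.656 (limma with the block). With the block and both M29 libraries left out, which was chosen after seeing the data, 9 of 9 members were DE in the iTreg comparison, 8 up-regulated and Anxa2 down-regulated, where 36.7% of all genes were. Leaving out both M22, both M42, or both M43 libraries gave 5 of 9, where 28.3%, 29.6%, and 31.9% of all genes were DE.

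The pairs of libraries with the same beginning show how far members moved together. In the M29 pair, Vim was 7.62 times as high in the iTreg as in the Th0 library, the largest ratio of the 4 pairs (4.69 in M22, 4.32 in M42, and 3.57 in M43). In the same pair the 4 listed S100 genes were lower in the iTreg library, with ratios of 0.577 for S100a4, 0.828 for S100a6, 0.714 for S100a10, and 0.576 for S100a11. In each of the other 3 pairs all 4 were higher in the iTreg library, from 1.18 for S100a11 in M43 to 10.0 for S100a4 in M42. Of all genes tested, 5.36% were lower in the M29 pair and higher in the other 3 pairs. This pattern was noticed in the data and not tested. Lgals1 and Lmna had their largest iTreg ratios in M42 and M43, 4.10 for Lgals1 in M42 and 9.04 for Lmna in M43.

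**Figure D3:**
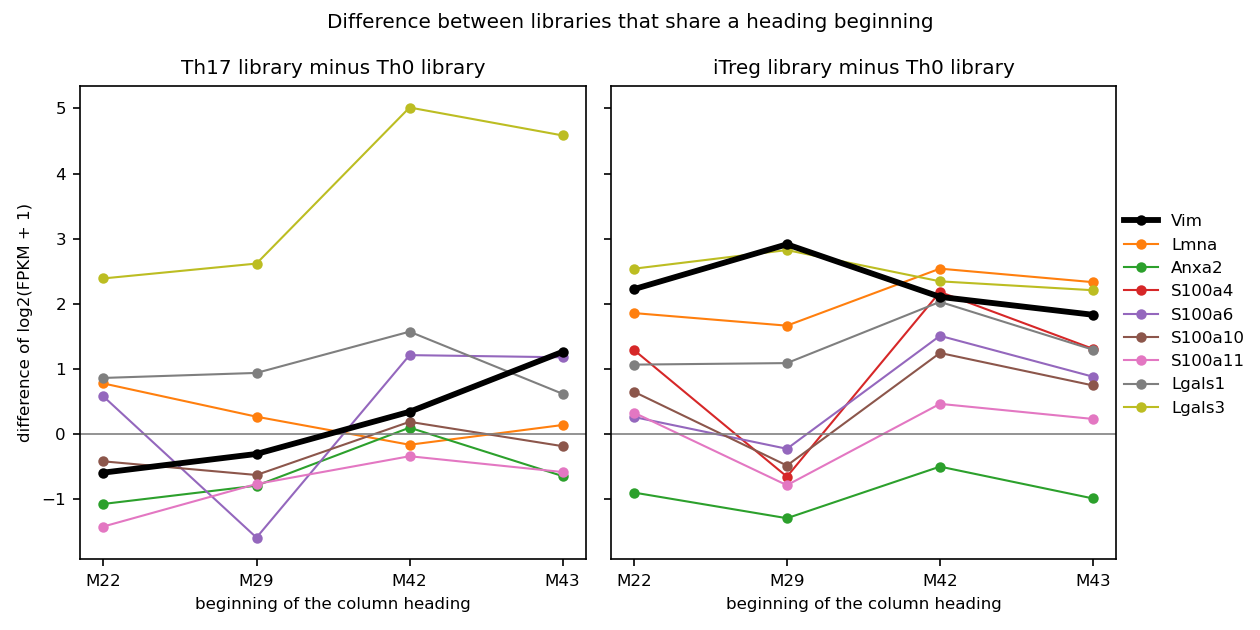
Difference of log2(FPKM + 1) between the Th17 or iTreg library and the Th0 library with the same heading beginning, with Vim in black. The beginnings have no order, and lines join the values of a gene for the eye. In the iTreg panel Vim is highest in M29 (2.91), where S100a4, S100a6, S100a10, and S100a11 lie below 0.

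Whether the others followed Vim over libraries depended on the group. M29 was the lowest Vim library in all 3 groups. It was also the lowest for 3 of 7 other members in Th0 cells (Lmna, Lgals1, and Lgals3), where it was lowest for 30.6% of all genes tested. In Th17 cells it was lowest for 6 of 7, all except S100a11, against 21.2% of all genes, and without M43_5 again for 6 of 7, against 26.5%. In iTreg cells it was lowest for 5 of 8 (Lmna, Anxa2, S100a4, S100a10, and Lgals1), against 27.3% of all genes. The highest Vim library was M43 in Th0 and Th17 cells, shared by 2 of 7 members (S100a10 and Lgals1) and 1 of 7 members (S100a6), where all genes had 20.4% and 21.9%. Without M43_5 the highest Vim library of Th17 cells was M42, shared by 5 of 7 members (Anxa2, S100a6, S100a10, Lgals1, and Lgals3), where all genes had 39.9%. It was M42 in iTreg cells, shared by 5 of 8 members (Lmna, S100a4, S100a6, S100a10, and Lgals1), where all genes had 27.8%.

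The likeness to Vim was also described by Pearson's r of log2(FPKM + 1) after centring on the group means, over the 8 libraries of a table. These r values are descriptions without a test, because members of a library share its culture, depth, and processing, and the Th0 libraries are in both tables. Lgals1 was similar to Vim in both tables, with r of 0.65 in the Th17 and 0.78 in the iTreg table. Lgals3 had r of 0.87 and 0.34, S100a10 had 0.67 and 0.40, and Anxa2 had 0.40 and 0.16. Lmna had r of -0.055 and 0.58 and S100a6 had 0.59 and -0.23, so their sign differed between tables. S100a11 ran against Vim in both, with r of -0.28 and -0.65, and S100a4 had r of -0.67 in the iTreg table. With so few libraries r is wide for any gene. From the 5th to the 95th percentile of all other genes tested in a table, r ran from -0.83 to 0.83 in the Th17 table and from -0.86 to 0.88 in the iTreg table. Of the members, Lgals3 in the Th17 table was outside this range. Without M43_5, over 7 libraries, r in the Th17 table was 0.82 for Lgals3 and 0.90 for Lgals1, both inside the range of -0.89 to 0.91 of all genes. It was then 0.64 for S100a10, 0.42 for S100a6, 0.30 for Anxa2, 0.24 for Lmna, and -0.52 for S100a11.

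The genes most like Vim by this measure, taken as the 5 genes outside the member list with the highest smaller r of both tables, were Cndp2 (r of 0.97 and 0.97), Ell2 (0.96 and 0.98), Nme4 (0.95 and 0.96), Nek6 (0.95 and 0.96), and Cenpf (0.96 and 0.95). The best member by the same measure was Lgals1. Nek6, a mitotic kinase, rose from 1.27 to 4.11 FPKM in Th0 cells to 19.7 to 33.7 FPKM in iTreg cells (log2 fold change 2.82, SE 0.29, adjusted p = 0.000372, limma). Cenpf, which encodes a kinetochore protein, stood at 2.28 to 9.41 FPKM in Th0 and 1.41 to 6.08 FPKM in iTreg cells (log2 fold change -0.73, SE 0.43, adjusted p = 0.306, limma). Of the other 3 genes Cndp2 was DE in iTreg cells (log2 fold change 1.00, SE 0.14, adjusted p = 0.00163, limma).

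Related genes were read from lists, and their calls are counts without a test of the list. The shares to read them against are those of all genes, 10.6% higher and 8.69% lower in Th17 cells and 8.36% higher and 8.21% lower in iTreg cells. Counts with the replicate block have other shares, 37.8% of all genes in Th17 cells and 40.9% in iTreg cells. Without M43_5 fewer of all genes were DE, as given above. Without M43_5, calls in Th17 cells came to 3 for the other annexins, 0 for the other S100 genes, 1 for the other galectins, 3 for the lamina and envelope, 1 for the linkers, and 2 for the genes set beside annexins and S100 proteins. Of the other annexins, 2 of 5 tested rose in Th17 cells and 2 of 6 in iTreg cells, and none was called lower. Without M43_5, Anxa6 was also called, as lower in Th17 cells (adjusted p = 0.00372, limma), beside Anxa4 (adjusted p = 0.0206, limma) and Anxa11 (adjusted p = 0.042, limma). Anxa4, a membrane-binding annexin, rose in both, from 2.23 to 4.97 FPKM in Th0 to 7.10 to 9.91 FPKM in Th17 cells (log2 fold change 1.00, SE 0.20, adjusted p = 0.00891, limma). It reached 7.58 to 18.0 FPKM in iTreg cells (log2 fold change 1.51, SE 0.27, adjusted p = 0.00651, limma). Anxa3 rose in iTreg cells to 2.41 to 6.09 FPKM from 0.165 to 0.803 FPKM in Th0 cells, where it rests on 2 to 12 fragments per library (log2 fold change 1.99, SE 0.27, adjusted p = 0.00151, limma). Anxa3 passed the filter of 1 FPKM through its iTreg libraries alone. Its rise without overlap was thereby fixed in advance, and the count of 2 of 6 includes it. Anxa11 rose in Th17 cells with a log2 fold change of 0.43 (SE 0.13, adjusted p = 0.0476, limma), a call that held in 2 of the 8 fits with a library left out. With the replicate block 4 of 5 annexins were DE in Th17 cells, where 37.8% of all genes were. Anxa5 (log2 fold change -0.49, adjusted p = 0.0144, limma with the block) and Anxa6 (log2 fold change -0.64, adjusted p = 0.0228, limma with the block) were then lower.

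Of the 12 other S100 genes, S100a1 and S100a13 were listed and neither was DE in either comparison, with log2 fold changes from -0.29 to 0.41. With the block S100a1 was lower in Th17 cells (adjusted p = 0.0342, limma with the block) and S100a13 was higher in iTreg cells (adjusted p = 0.0195, limma with the block). S100a8 and S100a9, which are typical of neutrophils, were not listed. Of the other galectins 3 were tested in each comparison. Lgals7 fell in Th17 cells, from 5.76 to 11.3 FPKM to 1.12 to 1.91 FPKM (log2 fold change -1.79, SE 0.20, adjusted p = 0.000407, limma), on 6 to 11 fragments per Th17 library. Lgals8 and Lgals9, which encode galectins with tandem carbohydrate-binding domains, were not DE in either comparison, with log2 fold changes from -0.18 to 0.26.

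Of 15 other genes of the nuclear lamina and envelope, 2 fell and 0 rose in iTreg cells, where 8.21% and 8.36% of all genes did. They were Syne2, which encodes a nesprin that links the envelope to the cytoskeleton (log2 fold change -0.89, SE 0.15, adjusted p = 0.00376, limma), and Tmpo, which encodes lamina-associated polypeptide 2 (log2 fold change -0.57, SE 0.14, adjusted p = 0.0264, limma). Syne2 was at most 0.659 FPKM in iTreg cells and passed the filter of 1 FPKM through its Th0 libraries alone. Its fall without overlap was thereby fixed in advance and adds no support to the count. The call of Tmpo held in 3 of the 8 fits with a library left out. In Th17 cells 3 fell and 0 rose, where 8.69% and 10.6% of all genes did. Syne2 had a log2 fold change of -0.80 (SE 0.16, adjusted p = 0.00924, limma) and Syne3 of -1.18 (SE 0.19, adjusted p = 0.00277, limma). Here too Syne2, at most 0.910 FPKM in Th17 cells, passed the filter through its Th0 libraries alone. Lbr, the lamin B receptor, had a log2 fold change of -0.92 (SE 0.26, adjusted p = 0.0382, limma), held in 2 of the 8 fits with a library left out. The B-type lamin gene Lmnb1 stood at 68.6 to 115 FPKM in Th0 cells and at 45.9 to 79.4 FPKM in iTreg cells (log2 fold change -0.51, SE 0.21, adjusted p = 0.143, limma, and 0.00187 with the block). Lmnb2 was not DE in iTreg cells (log2 fold change 0.13, SE 0.11, adjusted p = 0.47, limma). With the block 7 of the 15 genes were DE in Th17 cells (2 higher and 5 lower) and 6 in iTreg cells (1 higher, Zmpste24, the protease that processes prelamin A, and 5 lower). Of all genes, 37.8% in Th17 cells and 40.9% in iTreg cells were DE with the block.

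Of the linkers that tie intermediate filaments to other structures, Dst was DE in both comparisons, rising from 0.350 to 1.09 FPKM in Th0 cells to 3.99 to 9.43 FPKM in Th17 cells (log2 fold change 1.95, SE 0.24, adjusted p = 0.000644, limma). In iTreg cells it reached 3.72 to 7.82 FPKM (log2 fold change 2.07, SE 0.21, adjusted p = 0.000353, limma). Plec, which encodes the vimentin-binding plectin, had log2 fold changes of 0.51 (adjusted p = 0.288, limma) in Th17 cells and 0.72 (adjusted p = 0.0819, limma, and 0.0109 with the block) in iTreg cells. Macf1, which links actin to microtubules, was lower in iTreg cells with the block (log2 fold change -0.59, adjusted p = 0.27, limma, and 0.0284 with the block). The intermediate filament genes Des, Gfap, Nes, Prph, Synm, Krt8, and Krt18 were not listed.

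A further list was set beside the annexins and S100 proteins by choice, and not all of its genes encode known binding partners of them. Of this list, 4 of 6 were DE in iTreg cells (3 up-regulated and 1 down-regulated) and 2 of 5 in Th17 cells (1 in each direction). Myof, a ferlin of the plasma membrane, stood at 9.13 to 24.2 FPKM in iTreg cells and at 0.0151 to 0.0534 FPKM in Th0 cells, where it rests on 1 to 3 fragments per library (log2 fold change 4.10, SE 0.25, adjusted p = 2.97e-05, limma). It passed the filter of 1 FPKM through its iTreg libraries alone. A rise without overlap was thereby fixed in advance, and the count of 4 of 6 includes it. Capg, which caps actin filaments, rose from 164 to 228 FPKM in Th0 to 421 to 590 FPKM in Th17 cells (log2 fold change 1.36, SE 0.15, adjusted p = 0.000421, limma). It reached 550 to 754 FPKM in iTreg cells (log2 fold change 1.74, SE 0.15, adjusted p = 0.000179, limma). Ahnak, the giant protein bound by the complex of S100A10 and annexin A2, rose in iTreg cells with a log2 fold change of 0.92 (SE 0.27, adjusted p = 0.0482, limma), a call held in 2 of the 8 fits with a library left out. Plgrkt, a plasminogen receptor, fell in both, with log2 fold changes of -1.58 (SE 0.13, adjusted p = 0.000101, limma) in Th17 cells and -0.53 (SE 0.11, adjusted p = 0.013, limma) in iTreg cells. With the block Ahnak was also higher (adjusted p = 0.0207, limma with the block) and Tagln2 lower (adjusted p = 0.0016, limma with the block) in Th17 cells. All 6 genes were DE in iTreg cells with the block, 3 in each direction, where 40.9% of all genes were.

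**Figure D4:**
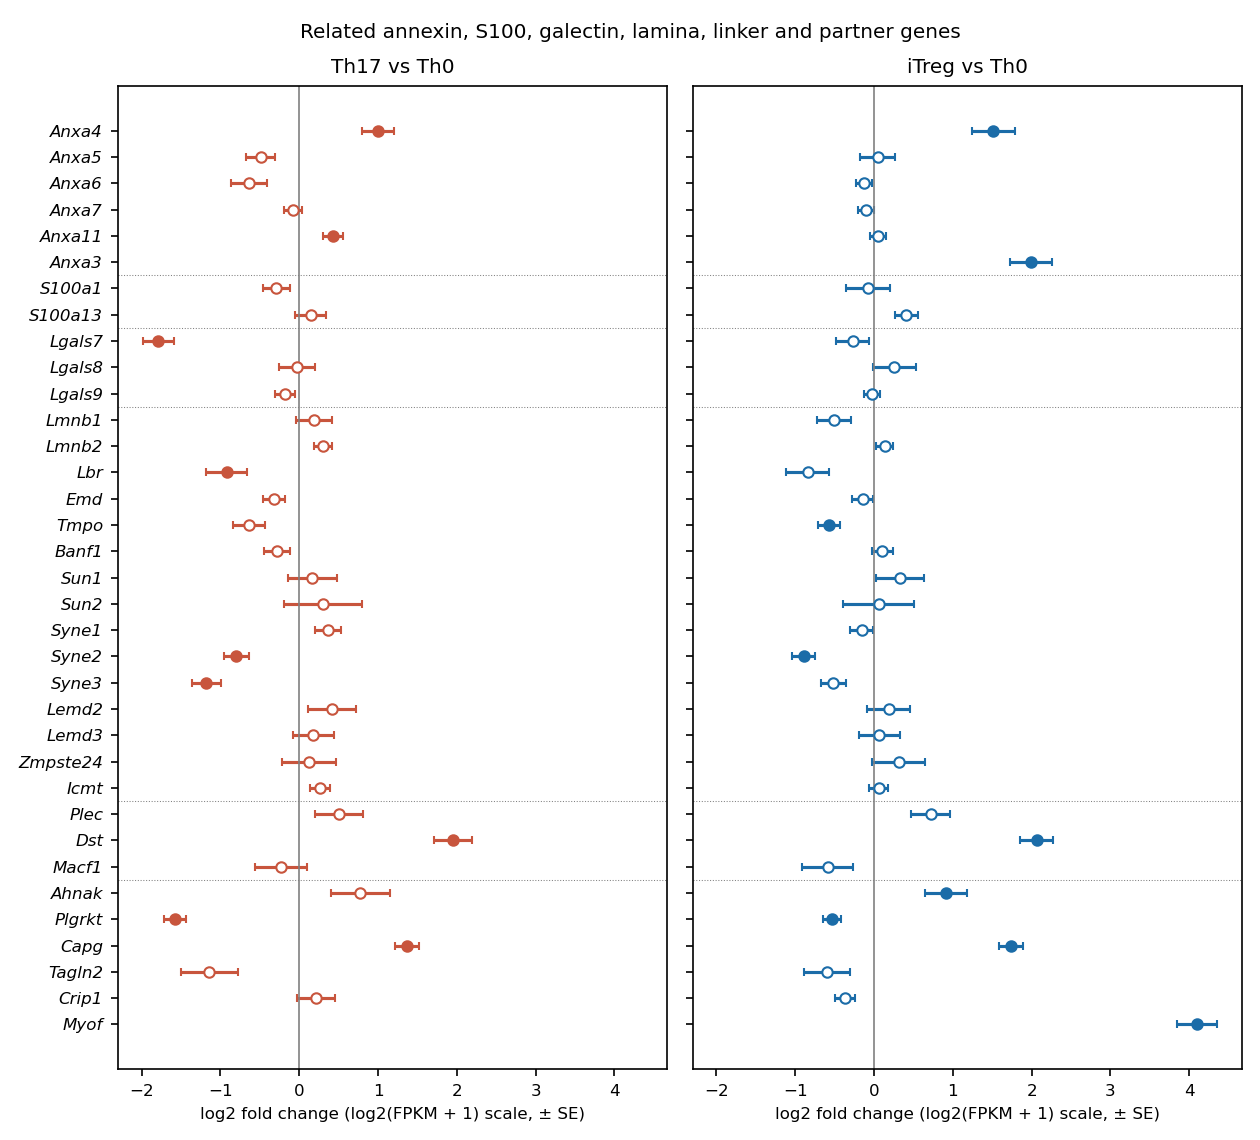
Log2 fold change against Th0 (difference of mean log2(FPKM + 1), bars show ± SE) of tested genes, with dotted lines between other annexins, other S100 genes, other galectins, nuclear lamina and envelope genes, intermediate filament linkers, and genes set beside annexins and S100 proteins. Filled points have an adjusted p under 0.05. Myof (4.10 in iTreg cells) lies highest, and Anxa3 and Myof were not tested in Th17 cells.

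Markers of the polarization and of the naive state give the setting of these values. Of 7 genes of T helper identity, 4 rose in Th17 cells, among them Il17f at 281 to 788 FPKM, and all 6 tested rose in iTreg cells, among them Foxp3. Il17a and Il17f, at most 0.114 and 0.184 FPKM in Th0 cells, passed the filter through the polarized libraries alone. So did Itgae in the iTreg comparison, at most 0.994 FPKM in Th0 cells. Their rises without overlap were thereby fixed in advance, and the counts of identity genes include them. Of 10 genes of naive and memory state, Lef1, a factor of naive T cells, and the activation marker Cd69 fell in both comparisons, and Il7r rose in Th17 cells. These counts of 4 and 3 in Th17 cells were the same without M43_5. With the block, 6 of 7 identity genes were DE in Th17 cells, and 9 of 10 genes of naive and memory state in Th17 cells (5 higher and 4 lower) and 5 of 10 in iTreg cells (2 higher and 3 lower). The share of all genes DE with the block was 37.8% in Th17 cells and 40.9% in iTreg cells. In iTreg cells the unblocked calls of Lef1 and Cd69 held in 2 and 4 of the 8 fits with a library left out. Cd44, an adhesion receptor that effector T cells keep high, stood at 30.0 to 79.4 FPKM in iTreg and 10.0 to 43.7 FPKM in Th0 cells (log2 fold change 1.20, SE 0.46, adjusted p = 0.116, limma, and 0.000981 with the block). In Th17 cells Cd44 went the other way (log2 fold change -0.63, adjusted p = 0.434, limma, and 0.00808 with the block). The part of these states in the members' values was not tested.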

How the data were processed

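The authors sequenced RNA of 12 cultures, aligned the reads with TopHat2 2.0.14 to mm10, counted exons with HTSeq without strand, removed genes of low CPM, and tested with edgeR. The sources used here do not give the annotation. The 2 deposited tables hold FPKM computed by the authors for 8 libraries each. Their deposited columns of log2 fold change, log2 average CPM, likelihood-ratio score, p-value, and FDR hold the authors' own comparison and were not used. Each Th0 library differs between tables by 1 factor (0.988 to 0.991), so groups were tested within a table. Columns were matched to groups by heading and table, and no column was left unmatched.

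For genes above 1 FPKM in 4 or more of 8 libraries, log2(FPKM + 1) was compared in limma 3.58.1 (R 4.3.3) with Benjamini-Hochberg adjusted p-values called under 0.05, after testing the code on simulated data. Single members were also compared by two-sided exact permutation tests (70 arrangements). Alternatives changed the pseudocount, filter, limma options, scaling, threshold, libraries, and pairing. The study's methods name a pair-wise design, but headings carry no experiment number. Libraries with the same heading beginning deviated together from their group means across genes, with r of 0.450 to 0.784 (Th17) and 0.662 to 0.769 (iTreg), against -0.590 to 0.434 and -0.576 to 0.248 for different beginnings, so blocked values are given where they change the call of a member or the count of a list of related genes. With the block, DE calls among 8 T cell markers went from 1 to 3 (Th17) and from 1 to 7 (iTreg), where 37.8% and 40.9% of all genes were DE. Whether cultures share mice or days is not stated. Sums of FPKM and list counts used Python 3.11.15 with pandas 2.3.3. Near-identical copies were sought with BLAST 2.17.0 in GENCODE M21 (at least 95% identity over 100 bases). Genes from lists were named where DE, up to 4 per list and table, and others for contrast after their values were seen. The members and lists were chosen with earlier results of these data known. A gene of the naive and memory list is counted there and not reported by itself.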

Additional observations from a re-analysis of the deposited data

Results flagged for a closer look

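The 26 groups of 4 libraries, 1 for each listed member and cell type, were searched on the FPKM scale for a library far from the other 3. For normally distributed values chance alone sets apart about 1 group in 20. Whether FPKM values meet this was not tested, and on a log scale the gaps would be smaller. In Th0 cells, S100a4 was 6.32 FPKM in library M29_1 (25 fragments) against 0.642 to 1.48 FPKM in the others, a gap of 0.852 of the whole range. In Th17 cells, Lmna was 4.05 FPKM in library M22_5 (111 fragments) against 1.20 to 1.53 FPKM in the others, a gap of 0.887 of the range. No member had Th17 and iTreg libraries apart from Th0 in opposite directions.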

How the results depend on the processing

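Over pseudocounts of 0.1 and 0.01, 2 other filters, limma-trend with robust options, and upper quartile or median scaling, all 17 member fold changes kept their sign, and the calls of all members held except Anxa2 in Th17 cells, which passed with upper quartile scaling (-0.61, adjusted p = 0.0499, limma) and median scaling (-0.64, adjusted p = 0.0431, limma). Leaving out single libraries moved the Th17 fold change (log2) from -0.41 to 0.76 for Vim and from -0.027 to 0.37 for Lmna, and in iTreg cells from -0.20 to 0.42 for S100a11. These 3 changed sign. Members called ranged from 1 to 2 in Th17 and from 4 to 6 in iTreg cells, and genes called from 1364 to 2237 and from 1140 to 1521. An FDR of 0.01 left 995 genes and 1 member (Lgals3) in Th17 cells and 778 genes and 3 members (Vim, Lmna, and Lgals3) in iTreg cells. The replicate block on the heading beginning gave 3882 and 4170 genes and 4 and 5 members. It changed no other member's call than those of Anxa2 and S100a11 in Th17 cells. With the block and the M29 pair left out, 3585 and 3748 genes and 4 and 9 members were called. Without the M22, M42, or M43 pair the block called 2892, 3022, and 3258 genes in iTreg cells and 3, 4, and 3 members in Th17 cells. Vim in Th17 cells was then -0.19 without M43, and S100a11 in iTreg cells -0.031 without M22 and -0.076 without M42. The counts of members with the lowest library of Vim (3, 6, and 5) did not move with scaling or with the table of the Th0 values, nor did the 6 of Th17 cells without M43_5. S100a4, S100a6, and Lmna in Th0 cells rest on few fragments, which limits their precision.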

Other observations

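Myof, which did not pass the filter in the Th17 comparison, stood at 0.363 and 0.278 FPKM in M22_5 and M29_5 and at 3.20 and 2.91 FPKM in M42_5 and M43_5, against 0.0152 to 0.0539 FPKM in Th0 cells. Anxa3, also not tested there, stood at 0.614 and 0.780 FPKM in M22_5 and M29_5 and at 3.36 and 2.30 FPKM in M42_5 and M43_5. Of the members, Vim, Anxa2, S100a6, S100a10, and Lgals3 were higher in M42_5 and M43_5 as well. Lmna, S100a11, and Lgals1 were not higher in both of these libraries. Many genes of the lists were also higher in both. Among them were S100a13, Lgals9, Tagln2, Crip1, Lmnb1, Emd, Tmpo, Banf1, Syne2, Foxp3, Ikzf4, and Il7r. Others, such as Capg and Anxa4, were not. The share of all genes with this split was not counted, so it cannot be called a trait of the members. This split of the libraries was noticed after the values were seen. Nothing was tested here.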
